A study of Homo sapiens with 36 samples.

Results

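The PAR-CLIP clusters of 35 aminoacyl-tRNA synthetase genes are described here, 19 that encode cytosolic enzymes and 16 that encode mitochondrial ones. A cluster is a stretch of RNA at which the authors' software found crosslinked reads with T→C transitions, and it was counted for a gene when its midpoint lay on the gene's strand and within its body in GENCODE 44 on GRCh38. Of the 278185 clusters in 18 lists, 1966 (0.707%) lay in these genes, 1706 in the genes of cytosolic and 260 in those of mitochondrial enzymes. The genes were chosen by name, not by their clusters, from 20033 protein-coding genes.

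The study used HEK293 Flp-In T-REx cells, a human embryonic kidney line, to ask which RNAs are contacted by SCAF4 and SCAF8, related nuclear proteins that bind RNA and the C-terminal domain of RNAPII. Each of 6 groups held 3 replicates: FLAG immunoprecipitation (IP) and input of a line that stably carried Dox-inducible FLAG-SCAF4, of a line with FLAG-SCAF8, and of the parental line, which lacks a tagged protein (its IP is the control IP). Cells of every group received 100 µM 4SU overnight and 500 µM 4SU for 2 h, 365 nm light at 2000 J/m2, and RNase I at 30 U/mL for 3 min in the extracts. The labels give 100 ng/mL Dox for both FLAG lines and none for the parental line, whereas the study's methods give a higher dose and list parental cells with the others. Input was RNA of the extract before the pull-out.

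The tagged protein was expressed from an introduced gene beside the cells' own SCAF4 and SCAF8 and the IPs measure the tagged copy. The SCAF4 gene held 16, 25 and 24 clusters in SCAF4 IP and 17, 16 and 17 in the input of the same line, against 1 to 11 in the 12 other lists. The SCAF8 gene held 23, 20 and 27 clusters in SCAF8 IP and 18, 20 and 18 in that line's input, but also 8, 22 and 17 in SCAF4 IP. The lists held 1621 to 54404 clusters, and replicate 1, which was sequenced with longer reads, gave 9638 of the 13573 clusters of control IP. Read depth is unknown, and counts were therefore set per 10000 clusters of a list. Methods call the replicates biological, but nothing in the labels says that they were separate cultures, and p values measure the spread between these lists.

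Aminoacyl-tRNA synthetases attach each amino acid to its tRNA, the step at which the genetic code is read into protein. Most cells keep one enzyme for the cytosol and a second, encoded by another nuclear gene and marked in its symbol by a 2, for mitochondria, and GARS1 and KARS1 serve both compartments. The enzymes fall into class I and class II by the fold of the catalytic domain. EPRS1, IARS1, KARS1, LARS1, MARS1, QARS1 and RARS1 also sit together in the multisynthetase complex of the cytosol.

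Clusters of different lists that overlapped on a strand were merged into regions, and 1 region is printed for each of 10 genes, as a stretch of the transcript that recurred between replicates. Regions of up to 300 nt outside the UTRs were eligible. Within a gene those that passed all background removals came first, then those in the most SCAF IP lists, then those with the fewest input and control IP lists, then those with the most clusters, and the first 8 genes were ranked in the same way by list numbers. Capitals mark bases of an exon of the representative transcript, lower case marks intron, and positions are on GRCh38. The first 8 regions occurred in all 6 SCAF IP lists, as did other regions of some of these genes. FARSB and AARS2 were added after their values were seen, as regions of at least 5 SCAF IP lists that also passed all background removals.
SARS1 exon 2 (chr1:109223946-109224074, plus strand): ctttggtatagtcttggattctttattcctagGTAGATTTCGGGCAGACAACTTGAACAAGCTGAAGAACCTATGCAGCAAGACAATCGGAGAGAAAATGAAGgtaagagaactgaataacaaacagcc
AARS1 intron 19 (chr16:70253532-70253688, minus strand): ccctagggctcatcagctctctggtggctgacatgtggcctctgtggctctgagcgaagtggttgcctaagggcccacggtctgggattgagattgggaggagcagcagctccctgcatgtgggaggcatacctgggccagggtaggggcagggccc
IARS1 exon 31 (chr9:92228943-92229114, minus strand): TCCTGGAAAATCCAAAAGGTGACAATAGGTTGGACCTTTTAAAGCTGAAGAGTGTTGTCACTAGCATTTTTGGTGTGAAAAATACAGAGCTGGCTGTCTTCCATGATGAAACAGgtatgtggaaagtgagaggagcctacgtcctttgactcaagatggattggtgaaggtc
VARS1 exon 4 (chr6:31792759-31792896, minus strand): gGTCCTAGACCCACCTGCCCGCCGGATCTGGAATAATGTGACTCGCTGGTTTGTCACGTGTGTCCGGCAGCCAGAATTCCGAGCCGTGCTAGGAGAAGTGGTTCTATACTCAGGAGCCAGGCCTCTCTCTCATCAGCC
YARS1 exon 4 (chr1:32806422-32806639, minus strand): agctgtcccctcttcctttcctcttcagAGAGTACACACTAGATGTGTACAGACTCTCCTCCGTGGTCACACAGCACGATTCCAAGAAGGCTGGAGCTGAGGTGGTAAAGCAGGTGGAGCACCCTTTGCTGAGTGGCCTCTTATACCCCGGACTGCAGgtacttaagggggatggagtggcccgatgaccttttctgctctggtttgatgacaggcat
LARS1 exon 25 (chr5:146129994-146130159, minus strand): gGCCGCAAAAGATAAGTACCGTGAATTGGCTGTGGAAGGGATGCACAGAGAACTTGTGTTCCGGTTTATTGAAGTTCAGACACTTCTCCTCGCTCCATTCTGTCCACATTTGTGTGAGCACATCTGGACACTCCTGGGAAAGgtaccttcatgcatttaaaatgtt
TARS1 exon 4 (chr5:33453288-33453455, plus strand): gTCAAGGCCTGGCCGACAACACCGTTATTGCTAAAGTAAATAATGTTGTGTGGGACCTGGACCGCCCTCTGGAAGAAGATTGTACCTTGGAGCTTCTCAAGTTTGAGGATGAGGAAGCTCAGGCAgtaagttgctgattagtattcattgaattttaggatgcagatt
GARS1 exon 4 (chr7:30601057-30601226, plus strand): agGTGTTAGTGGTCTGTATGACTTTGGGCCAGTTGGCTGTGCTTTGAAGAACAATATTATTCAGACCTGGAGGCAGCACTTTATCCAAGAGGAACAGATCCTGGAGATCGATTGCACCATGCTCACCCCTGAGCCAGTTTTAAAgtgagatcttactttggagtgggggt
FARSB exon 3 (chr2:222642845-222643019, minus strand): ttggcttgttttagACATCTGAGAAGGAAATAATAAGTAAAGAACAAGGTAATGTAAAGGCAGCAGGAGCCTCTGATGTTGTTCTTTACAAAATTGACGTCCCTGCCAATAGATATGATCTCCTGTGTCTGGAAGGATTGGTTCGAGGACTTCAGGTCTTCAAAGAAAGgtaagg
AARS2 exon 2 (chr6:44312083-44312263, minus strand): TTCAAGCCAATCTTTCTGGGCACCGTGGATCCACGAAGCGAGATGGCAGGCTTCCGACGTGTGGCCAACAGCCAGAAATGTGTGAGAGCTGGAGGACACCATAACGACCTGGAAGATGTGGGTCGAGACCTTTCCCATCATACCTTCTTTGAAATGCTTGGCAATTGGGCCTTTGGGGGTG

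SARS1 exon 2 lay in all 6 SCAF IP lists and in no input or control IP list, the only such region among the 49 regions of these genes that occurred in all 6. FARSB exon 3 and AARS2 exon 2, each in 5 SCAF IP lists, also had no input or control IP cluster. The AARS1 region lay wholly within intron 19 and had clusters in 1 of 9 inputs. The regions of LARS1 exon 25, TARS1 exon 4 and GARS1 exon 4 overlapped clusters of 4 inputs each. Most of the shown stretches end in or begin with intron bases, since 8 of them spanned an exon edge.

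Clusters occurred in 33 of the 35 genes, and all 33 had at least 1 in a SCAF IP list. NARS2 and PARS2, the mitochondrial enzymes for asparagine and proline, had 0 clusters in all 18 lists. In 18 genes, 14 cytosolic and 4 mitochondrial, every one of the 6 SCAF IP lists held a cluster. The 6 SCAF IP lists together held 1393 clusters in these genes, and 595 of them (42.7%) lay in 4 genes of cytosolic enzymes, IARS1, LARS1, AARS1 and YARS1.

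**Figure D1:**
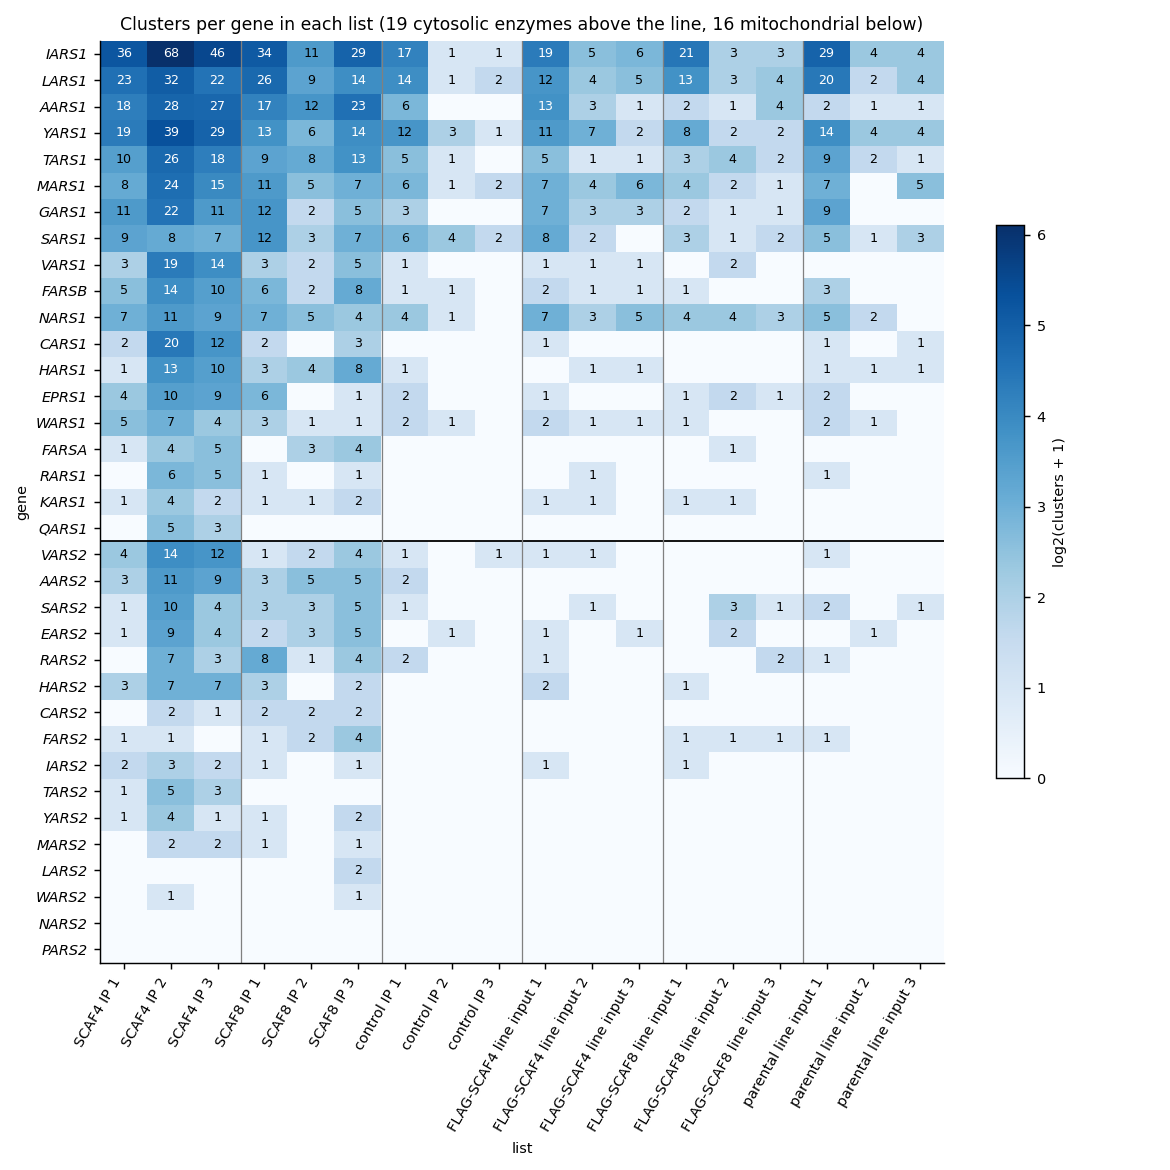
Number of clusters in each aminoacyl-tRNA synthetase gene (rows, cytosolic enzymes above mitochondrial ones) in each of the 18 lists (columns, 3 replicates a group). IARS1 holds the most, up to 68 in SCAF4 IP replicate 2, and the rows of NARS2 and PARS2 are empty.

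IARS1, the isoleucine enzyme, held 36, 68 and 46 clusters in SCAF4 IP replicates 1, 2 and 3 and 34, 11 and 29 in SCAF8 IP. Its background was high too, with 17, 1 and 1 in control IP, 19, 5 and 6 in FLAG-SCAF4 input, 21, 3 and 3 in FLAG-SCAF8 input and 29, 4 and 4 in parental input. Per 10000 clusters, IARS1 ranged from 6.02 to 19 in SCAF IP, from 2.9 to 23.2 in the inputs and from 4.32 to 17.6 in control IP, so the 3 kinds of list overlapped. LARS1, the leucine enzyme, held 23, 32 and 22 clusters in SCAF4 IP and 26, 9 and 14 in SCAF8 IP, against 14, 1 and 2 in control IP. Its inputs held 12, 4 and 5, then 13, 3 and 4, then 20, 2 and 4 in the FLAG-SCAF4, FLAG-SCAF8 and parental lines. In both genes replicate 1 stood highest among the inputs of each line.

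AARS1, the alanine enzyme, held 18, 28 and 27 clusters in SCAF4 IP and 17, 12 and 23 in SCAF8 IP, against 6, 0 and 0 in control IP. It held 13, 3 and 1 in FLAG-SCAF4 input, 2, 1 and 4 in FLAG-SCAF8 input and 2, 1 and 1 in parental input. Every SCAF IP list thus held more AARS1 clusters than every list but the first FLAG-SCAF4 input, although per 10000 clusters the groups overlapped. YARS1, the tyrosine enzyme, held 19, 39 and 29 in SCAF4 IP, 13, 6 and 14 in SCAF8 IP and 12, 3 and 1 in control IP. The YARS1 values of the FLAG-SCAF4, FLAG-SCAF8 and parental inputs were 11, 7 and 2, then 8, 2 and 2, then 14, 4 and 4. Clusters of YARS1 were therefore present in all 18 lists, as were those of IARS1 and LARS1.

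TARS1, which charges threonine, held 10, 26 and 18 clusters in SCAF4 IP, 9, 8 and 13 in SCAF8 IP, 5, 1 and 0 in control IP and 1 to 9 in each of the 9 inputs. MARS1, the methionine enzyme that supplies both initiator and elongator tRNA, held 8, 24 and 15 in SCAF4 IP, 11, 5 and 7 in SCAF8 IP, 6, 1 and 2 in control IP and 0 to 7 in the inputs. GARS1, which charges glycine in both compartments, held 11, 22 and 11 in SCAF4 IP, 12, 2 and 5 in SCAF8 IP, 3, 0 and 0 in control IP and 0 to 9 in the inputs. In each of these 3 genes some SCAF8 IP list held no more clusters than the highest input. SARS1, the serine enzyme, held 9, 8 and 7 in SCAF4 IP, 12, 3 and 7 in SCAF8 IP, 6, 4 and 2 in control IP and 0 to 8 in the inputs. VARS1, the valine enzyme, with as many SCAF IP clusters as SARS1 (46), held 3, 19 and 14 in SCAF4 IP and 3, 2 and 5 in SCAF8 IP. VARS1 had a single cluster in control IP and 5 in the 9 inputs, so the same number of IP clusters stood over very different backgrounds.

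A further 3 genes of cytosolic enzymes either had clusters in at least 2 control IP lists or passed a test below. FARSB, the beta subunit of the phenylalanine enzyme, held 5, 14 and 10 clusters in SCAF4 IP and 6, 2 and 8 in SCAF8 IP, with 1, 1 and 0 in control IP and 0 to 3 in the inputs. WARS1, the tryptophan enzyme and a known interferon target, held 5, 7 and 4 in SCAF4 IP and 3, 1 and 1 in SCAF8 IP, with 2, 1 and 0 in control IP and 0 to 2 in the inputs. NARS1, the asparagine enzyme, held 7, 11 and 9 in SCAF4 IP, 7, 5 and 4 in SCAF8 IP and 4, 1 and 0 in control IP, and its inputs held 7, 3 and 5, then 4, 4 and 3, then 5, 2 and 0. In NARS1 the input of the FLAG-SCAF4 line held as many clusters as the IP in replicate 1, and fewer in the other replicates. The 7 cytosolic genes not yet named with values held 8 to 39 SCAF IP clusters, from QARS1 to CARS1 and HARS1, and 0 to 7 in the 9 inputs.

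Among mitochondrial enzymes, VARS2 held 4, 14 and 12 clusters in SCAF4 IP, 1, 2 and 4 in SCAF8 IP, 1, 0 and 1 in control IP and 3 in all 9 inputs. AARS2, the mitochondrial alanine enzyme, held 3, 11 and 9 in SCAF4 IP, 3, 5 and 5 in SCAF8 IP, 2, 0 and 0 in control IP and 0 in every input. SARS2 held 1, 10 and 4 in SCAF4 IP, 3, 3 and 5 in SCAF8 IP, 1 in control IP and 8 in the inputs. AARS2 was thus the only one of these 3 without an input cluster. EARS2, the glutamate enzyme, held 1, 9 and 4 in SCAF4 IP, 2, 3 and 5 in SCAF8 IP, 1 in control IP and 5 in the inputs. All 37 SCAF IP clusters of VARS2 and 23 of the 26 in SARS2 also lay within another annotated gene of the same strand, as did 7 in HARS2 and all 6 in MARS2, and these cannot be assigned to the synthetase alone. The other 10 mitochondrial genes with clusters held 2 to 23 in the 6 SCAF IP lists.

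Cytosolic and mitochondrial enzymes differed in how many clusters they carried and in how the IPs stood against the inputs. The 19 genes of cytosolic enzymes held 76 ± 9.83 clusters per 10000 in SCAF4 IP (mean ± SD, n = 3), 47.4 ± 16.2 in SCAF8 IP, 64.3 ± 17.1 in control IP, 75.3 ± 7.03 in FLAG-SCAF4 input, 40.5 ± 25.5 in FLAG-SCAF8 input and 58.2 ± 26.1 in parental input. The 6 SCAF IP lists (35.9 to 85.8) overlapped the inputs (25.5 to 88) and control IP (49.4 to 83). SCAF4 IP, at 66.2 to 85.8, and FLAG-SCAF4 input, at 68.9 to 82.8, both lay above all 3 SCAF8 IP lists, at 35.9 to 65.9. In all 6 groups replicate 1 stood highest, at 65.9 to 88. Without replicate 1 the means were 71.1 and 38.2 in SCAF4 and SCAF8 IP and 71.6 and 25.8 in the inputs of the same lines. The share of the genes of cytosolic enzymes was thus close between the IP and the input of the FLAG-SCAF4 line, with and without replicate 1.

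The 16 genes of mitochondrial enzymes held 12.4 ± 2.95 clusters per 10000 in SCAF4 IP (n = 3), 9.77 ± 0.586 in SCAF8 IP and 5.57 ± 1.08 in control IP. Their inputs held 3.71 ± 1.53, 4.5 ± 1.26 and 2.72 ± 1.12 in the FLAG-SCAF4, FLAG-SCAF8 and parental lines. The 6 SCAF IP lists ranged from 8.95 to 14.1 and the 9 inputs from 1.97 to 5.79, without overlap, and the 3 control IP lists, at 4.32 to 6.23, also lay below every SCAF IP list. Those control IP values rest on 8 clusters in all, and the 9 inputs on 29. Over all genes tested, 67.2% were also higher in SCAF IP than in the inputs of the FLAG lines. The 6 SCAF IP lists held 192335 clusters in sum and the 9 inputs 72277, so a gene of low count is less likely to show an input cluster. How far this bears on the difference was not tested. Of the 223 SCAF IP clusters counted here 73 (32.7%), in VARS2, SARS2, HARS2 and MARS2, also lay in another gene, as did 11 of the 29 input clusters. Without such clusters SCAF4 IP held 7.51 ± 1.98 and SCAF8 IP 7.53 ± 0.489 per 10000 (n = 3 each). The 6 SCAF IP lists then ranged from 5.27 to 9.01, still above the inputs, at 0 to 3.86, and control IP, at 0 to 4.32. Of the 14 mitochondrial genes with a cluster, 7 had none in any input and 6 of these none in control IP either, whereas all cytosolic genes but QARS1 had an input cluster.

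**Figure D2:**
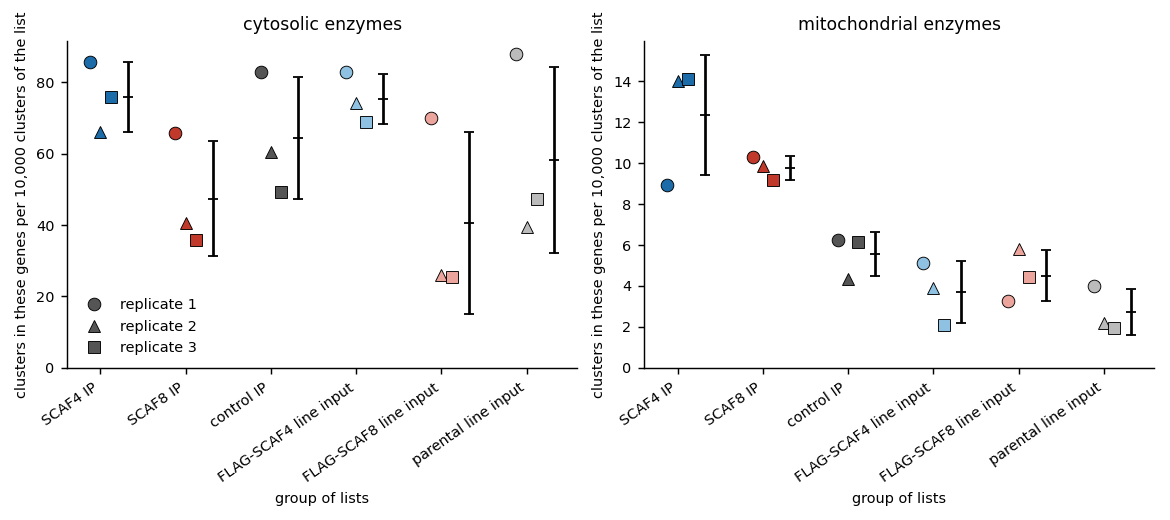
Clusters per 10000 clusters of a list in the genes of cytosolic (left) and mitochondrial (right) enzymes for each of the 6 groups, with a marker for each replicate (circle, triangle and square for replicates 1, 2 and 3) and the mean ± SD. For cytosolic enzymes each IP overlaps the input of its line, and SCAF4 IP and FLAG-SCAF4 input lie above SCAF8 IP, while the 6 SCAF IP lists of the mitochondrial enzymes, at 8.95 to 14.1, lie above all inputs and control IP lists.

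In the SCAF IP lists a gene of a cytosolic enzyme held 10.3 clusters per list on average and a gene of a mitochondrial one 2.32. The ratio, taken within each list and then averaged, was 4.79 ± 1.78 over the 6 lists (SD), and without the clusters that also lay in another gene it was 7.23. Both sets had similar exon lengths, 59.1 and 47.6 kb in sum, and per kb of exon the mean of the ratios within lists was 4.57. Gene bodies of mitochondrial enzymes were longer in sum, 1332 against 783 kb, and per 10 kb of gene body this mean was 9.67. The lists give no RNA level other than the inputs, so more RNA and more contact per RNA cannot be told apart. In the same IP lists the 7 enzymes of the multisynthetase complex held 11.5 clusters per gene and list, close to the mean of all genes of cytosolic enzymes. The complex genes were uneven: IARS1 and LARS1 gave 224 and 126 of their 482 clusters, while QARS1, KARS1 and RARS1 held 8, 11 and 13. Class I enzymes held 7.18 clusters per gene and list and enzymes of class II alone 5.99, with 224 of the 818 class I clusters in IARS1.

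Whether a gene had more clusters in IP than in input was tested for each gene by exact permutation of the labels of the 6 SCAF IP lists and the 6 inputs of both FLAG lines (two-sided), with Benjamini-Hochberg adjustment over 6399 genes. Labels were exchanged freely across lines and replicate numbers, so the test did not pair an IP with the input of its extract. Of all these genes 8.33% were called higher in SCAF IP and 4.8% lower, and of the 31 synthetase genes tested 1 was called higher, AARS2, and 1 lower, NARS1. AARS2 held 1.58, 2.02 and 2.65 clusters per 10000 in SCAF4 IP and 1.19, 2.73 and 1.2 in SCAF8 IP, and was at 0 in every input, so the groups did not overlap. Its mean was 1.9 ± 0.687 (n = 6; adjusted p = 0.0235, exact permutation test with Benjamini-Hochberg adjustment). A count of 0 in the 6 inputs together allows up to 0.598 per 10000, at 3 clusters, and against this limit AARS2 was at least 3.13-fold higher in the pooled SCAF IP lists. Control IP replicate 1 held 2 AARS2 clusters, 2.08 per 10000 (exact 95% interval 0.251 to 7.49), which is within the range of SCAF IP.

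NARS1 was lower, at 2.47 ± 0.911 per 10000 in SCAF IP against 5.64 ± 2.58 in the inputs (n = 6 each; adjusted p = 0.0385, exact permutation test with Benjamini-Hochberg adjustment). Its lists overlapped, with inputs from 3.33 to 10.4 and SCAF IP from 0.964 to 3.69. By number of clusters the direction was reversed, with 2.83 more NARS1 clusters in an IP list than in an input on average. With the replicate number as a block the differences were the same, 1.9 and -3.17, and both genes had the smallest p that 216 exact permutations within replicate numbers allow, 0.00926 (adjusted p = 0.0703). No gene of 6399 was called in that fit, so it does not separate these genes from the rest. Within replicates 2 and 3, at 4 against 4 lists, both again had the smallest p of the exact permutation test, 0.0286 (adjusted p = 0.107), and no gene of 5711 was called. The differences there were 2.15 for AARS2 and -3.78 for NARS1.

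The median difference of the 31 genes was 0.388 clusters per 10000, against 0.277 over all genes tested. SCAF IP was higher in 12 of 19 cytosolic genes and 11 of the 12 mitochondrial genes tested, against 67.2% of all genes, and 4 mitochondrial genes of low count were not tested. Among those tested, QARS1, AARS2, CARS2, MARS2, TARS2 and YARS2 had no cluster in the 6 inputs. They reached the 6 clusters needed for testing through SCAF IP alone, so they could only come out higher. The SCAF IP lists were also larger, with 192335 clusters against 50137 in these inputs. At an unadjusted p under 0.05, 7 synthetase genes were higher and 1 lower, against 23.5% and 8.97% of all genes. CARS2 and YARS2, mitochondrial enzymes for cysteine and tyrosine without an input cluster, had an adjusted p of 0.0621 each in the same exact permutation test. Each held 0.468 clusters per 10000 in the pooled SCAF IP lists. A count of 0 in the 6 inputs allows up to 0.598, which is above that value. Complex enzymes were higher in 4 of 7 genes with a median difference of 0.21, none of them called.

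**Figure D3:**
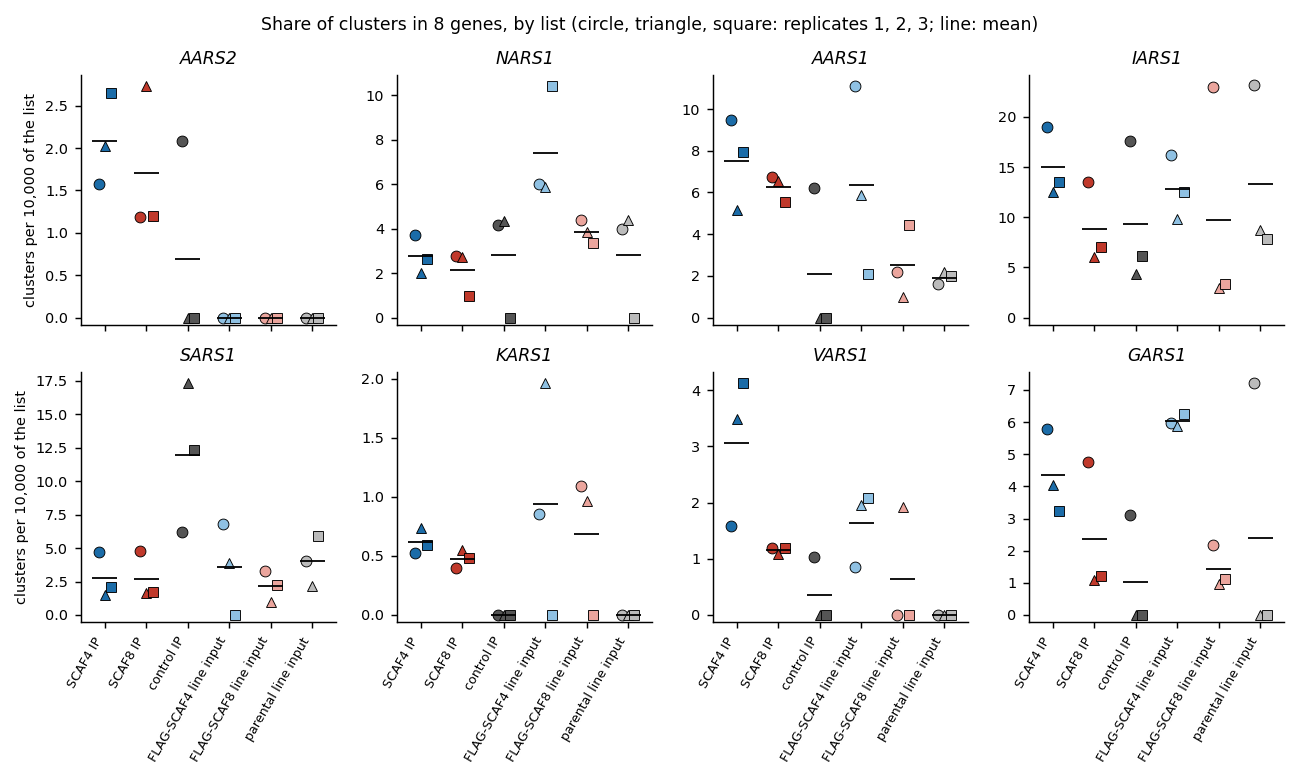
Clusters per 10000 clusters of a list in 8 genes, with a point for each list by group and a line at the group mean. AARS2 is at 0 in all 9 inputs, NARS1 inputs reach 10.4, and the control IP points of SARS1 (6.23 to 17.3) lie above those of both SCAF IPs.

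Against control IP, no gene of 6212 passed adjustment in the exact permutation test of 6 against 3 lists. The smallest p of this exact test, 0.0119, was reached by 932 genes where 1479 were needed (smallest adjusted p 0.0793). At an unadjusted p under 0.05, 21.9% of all genes were higher in SCAF IP and 5.49% lower, and of the 31 synthetase genes 4 were higher and 2 lower. KARS1, the lysine enzyme of both compartments, was higher in every SCAF IP list (0.397 to 0.735 per 10000) than in control IP, where it had no cluster (p = 0.0119, exact permutation). The 3 control IP lists together allow up to 2.21 per 10000 at a count of 0, which is above all KARS1 values, and KARS1 was not higher than its inputs either (0.546 ± 0.113 against 0.811 ± 0.739, n = 6 each). SARS2, AARS1 and HARS1, the histidine enzyme, had p = 0.0238, 0.0357 and 0.0476 in the same exact test, with overlapping lists.

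SARS1 lay the other way, with 6, 4 and 2 clusters in control IP or 6.23, 17.3 and 12.3 per 10000, above all 6 SCAF IP lists at 1.47 to 4.76 (p = 0.0119, exact permutation). The control IP values of SARS1 had wide exact 95% intervals, 4.71 to 44.2 in replicate 2, because 1 cluster was worth 4.32 per 10000 there. MARS1 was also lower in SCAF IP (3.64 ± 1.16 against 7.63 ± 4.19; p = 0.0476, exact permutation). The package limma, on log2 of clusters per 10000 plus 1, called 4 of the 31 synthetase genes higher than control IP (KARS1, AARS1, HARS1 and VARS1) and SARS1 lower, against 19.5% and 4.35% of all genes. Against the inputs it called CARS1, AARS2, CARS2, VARS2 and YARS2 higher and NARS1 lower, against 20.6% and 6.52% of all genes. The shares of synthetase genes called were thus no higher than the background.

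SCAF4 IP and SCAF8 IP were compared directly, with 3 lists each, where the exact permutation test cannot go below p = 0.1 and no gene could pass. All 19 genes of cytosolic enzymes had a higher mean in SCAF4 IP, by a median of 1.24 clusters per 10000, against 56.2% of 6144 genes and a median of 0.0712. Mitochondrial genes went both ways, 7 higher and 5 lower of 12. Every SCAF4 IP list was above every SCAF8 IP list in 9 of 31 genes (CARS1, FARSB, TARS1, VARS1, YARS1, HARS2, IARS2, TARS2 and VARS2), against 10.4% of all genes, and below in CARS2 alone, against 6.48%. YARS1 held 8.57 ± 1.42 per 10000 in SCAF4 IP and 3.94 ± 1.06 in SCAF8 IP (n = 3), CARS1 2.75 ± 1.47 and 0.506 ± 0.439, and VARS2 2.74 ± 0.728 and 0.818 ± 0.37.

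The inputs of the lines differed in the same way for the genes of cytosolic enzymes. In 15 of the 18 with an input cluster the mean was higher in FLAG-SCAF4 than in FLAG-SCAF8 input, by a median of 1.49, against 44.6% of 4800 genes with a median of -0.0855. Among mitochondrial genes 3 of 7 were higher. How much of the difference between the IPs is also present in the inputs was not tested. QARS1, the glutamine enzyme, and TARS2 had clusters in SCAF4 IP lists alone, 8 and 9, and the 2 clusters of LARS2 were both in SCAF8 IP replicate 3.

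Clusters of the SCAF IPs lay mostly in coding exons. By the midpoint, 69.2 ± 8.63% of the clusters in synthetase genes were exonic over the 6 SCAF IP lists, against 64.1 ± 4.22% in all protein-coding genes. The inputs of the same lines gave 67.4 ± 8.88% (n = 6), control IP 64.4 ± 7.94% and parental input only 41.5 ± 8.32% (n = 3 each). The parental input thus had the highest intronic share, 56.6% of its clusters in these genes. Its exonic share was also low over all protein-coding genes, 46.2 ± 2.13%. Of the 1393 SCAF IP clusters 60.2% were in coding sequence, 1.15% in the 5′ UTR and 4.67% in the 3′ UTR. Mitochondrial genes had more in the 3′ UTR, 13.5% of 223, against 2.99% of 1170 in cytosolic genes. The 9 inputs differed in the same direction, at 24.1% of 29 and 3.92% of 434. Last exons are also longer in mitochondrial genes, with a median of 813 nt against 424 nt. The last exon held 7.18% of the clusters, against 17.4% over all genes, and internal exons after the second held 24% on the 5′ side of the gene's middle exon and 27.4% on its 3′ side, against 16% and 18.3%. The inputs of the same lines also had a smaller share in the last exon, 11.5% against 30% over all genes. Per kb and list, last exons held 0.513 SCAF IP clusters and internal exons of the 5′ side 2.15. Over all genes these values were 0.131 and 0.5, so last exons were the sparser there too.

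By exon rank the genes of cytosolic enzymes were covered from the first to the last exon. An exon was counted when clusters of at least 2 of the 6 SCAF IP lists overlapped it, which held for 47.4% of the 19 first exons, 42.1% of second exons, 52.4% of 143 further exons on the 5′ side, 53.4% of 174 on the 3′ side and 63.2% of last exons. Last exons are longer, with a median of 424 nt against 113 to 141 nt for the others. In mitochondrial genes the shares were 20%, 28.6%, 19%, 16.2% and 33.3% in the same order. At least 2 of the 9 inputs overlapped 10.5% of first and second exons, 18.9% and 14.9% of internal exons and 42.1% of last exons of cytosolic genes. Inputs thus stood closest to the IPs at the last exon. In mitochondrial genes no exon on the 5′ side had 2 inputs.

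**Figure D4:**
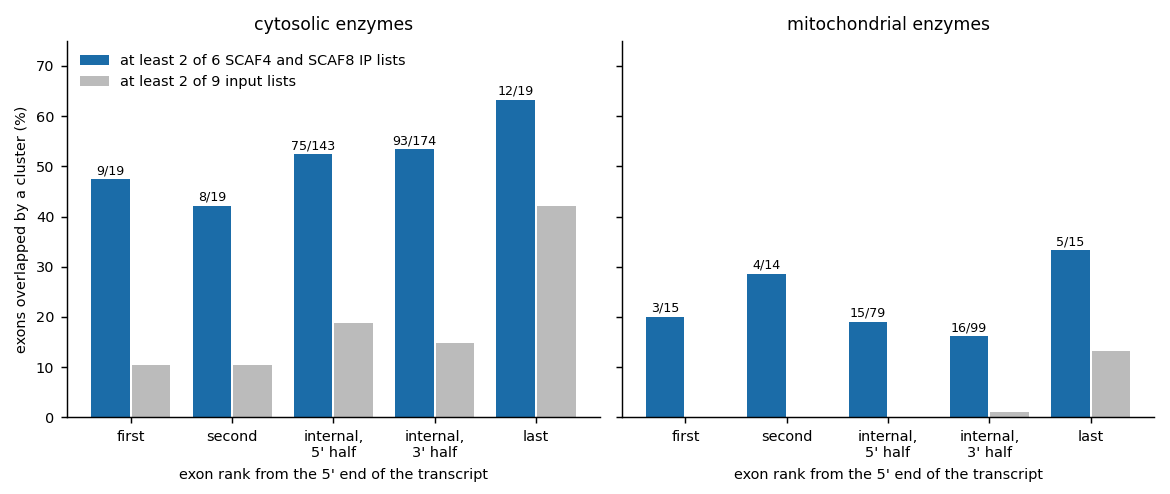
Percent of exons overlapped by clusters of at least 2 of 6 SCAF IP lists and of at least 2 of 9 inputs, by exon rank (first, second, internal exons of the 5′ and 3′ side, last), for cytosolic and mitochondrial enzymes. SCAF IP shares of cytosolic genes stay between 42.1% and 63.2% at every rank, and input shares reach 42.1% at the last exon alone.

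Along single genes the coverage was uneven. In AARS1 20 of 21 exons were overlapped in at least 2 SCAF IP lists, and each SCAF IP list overlapped 11 to 20 of them. YARS1 had 12 of 13 exons, IARS1 28 of 34, NARS1 11 of 14, MARS1 16 of 21, TARS1 14 of 19, LARS1 23 of 32 and GARS1 12 of 17. KARS1 was the contrast, with exon 14, its last, as the only exon in at least 2 SCAF IP lists. All 6 SCAF IP lists overlapped it, and so did 2 inputs. QARS1, with 24 exons, had clusters in exons 1, 3 and 16 in 2 SCAF4 IP lists each and in no SCAF8 IP list. Among mitochondrial genes AARS2 had clusters over exon 7 in all 6 SCAF IP lists and 1 control IP list, over exon 4 in 5 SCAF IP lists and 1 control IP list, over exon 2 in 5 SCAF IP lists and no other list, and over exon 12 in the 3 SCAF4 IP lists alone.

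Introns held 113 of 224 IARS1 clusters in the SCAF IPs and 61 of 94 in the inputs. Introns 19, 20 and 21 of IARS1 held 17, 24 and 5 SCAF IP clusters, 10, 21 and 11 input clusters and 2, 4 and 1 control IP clusters, and exon 21 was overlapped in all 6 SCAF IP lists, all 3 control IP lists and 8 inputs. LARS1 intron 15 likewise held 11 SCAF IP and 17 input clusters. SARS1 had such a place at its start, where exon 1 and intron 1 were hit in all 3 control IP lists, with 6 of its 12 control IP clusters in intron 1. YARS1 intron 4 held 27 SCAF IP clusters, in all 6 lists, and 9 in the inputs, and HARS1 intron 2 held 12 and 4. AARS1 had 76% of its SCAF IP clusters in exons, EPRS1 96.7% and YARS1 49.2%.

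**Figure D5:**
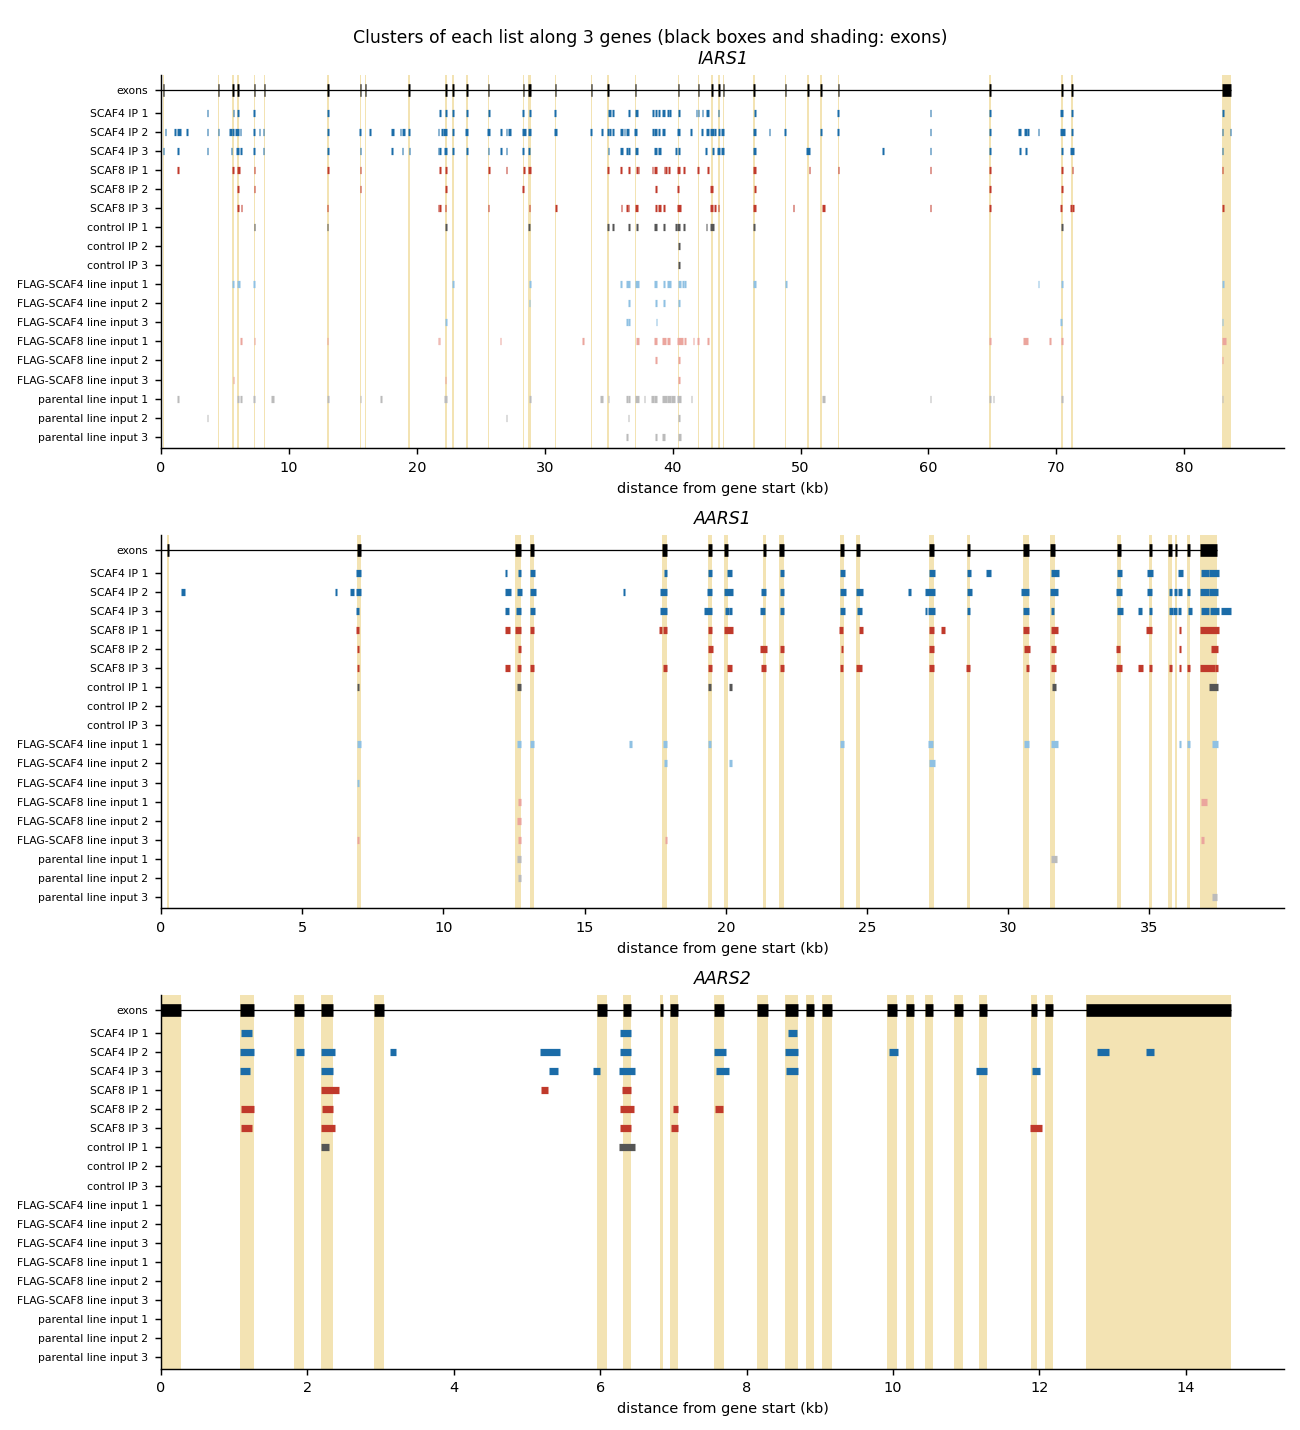
Clusters of each list along IARS1, AARS1 and AARS2, in kb from the gene's start, with exons drawn at the top and a row for each of the 18 lists. IARS1 shows input and control IP clusters around exon 21, AARS1 has SCAF IP clusters over nearly all exons, and no input row has a cluster in AARS2.

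Regions that recurred in at least 2 of the 6 SCAF IP lists numbered 312, 259 in cytosolic and 53 in mitochondrial genes. Both proteins contributed to 213 of them (68.3%), SCAF4 IP alone to 93 (29.8%) and SCAF8 IP alone to 6 (1.92%), against 77.9%, 16.6% and 5.48% of 36464 regions in all protein-coding genes. A single region of the cytosolic genes was seen in SCAF8 IP alone. No input or control IP cluster overlapped 47.1% of the cytosolic and 77.4% of the mitochondrial regions, against 54.4% over all genes. All 6 lists shared 49 regions, 47 of them cytosolic.

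The study's rule for consensus regions then removes those that overlap more than 1 input, those in genes with at least 1 input region per 10 kb, and those with a control IP cluster. It left a SCAF4 consensus region in 15 synthetase genes (7 cytosolic, 8 mitochondrial), where 40.2% of the 9830 genes with any cluster had one. For SCAF8 it left 7 (2 and 5), against 26.8%, and for the pooled lists 16 (7 and 9), against 51%. The limit on input density, as counted here, removed 12 of the 19 cytosolic genes (63.2%), among them the 9 with the most SCAF IP clusters, and 3 of 14 mitochondrial ones (21.4%), the same share as over all genes. IARS1 had 5.48 input regions per 10 kb and YARS1 4.92. Without that step 29, 18 and 30 genes kept a SCAF4, SCAF8 or pooled region.

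Genes with consensus regions of both proteins were FARSA and FARSB, the subunits of the cytosolic phenylalanine enzyme, and AARS2, CARS2, EARS2 and FARS2 among mitochondrial ones, while RARS2 had regions in SCAF8 IP but none in SCAF4 IP. CARS1 and FARSB had the most pooled regions, 9 each, and AARS2 and EPRS1 6 each. The FARSB exon 3 and AARS2 exon 2 sequences printed above are the pooled regions found in the most lists in these genes. FARS2 had 1 region in 5 SCAF IP lists, over its exon 2, in a gene body of 568149 nt, the longest of all 35.

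Sequence around the midpoint of the 312 regions was searched, on the transcribed strand in a window of 100 nt, for short motifs named by the study. The motif CGG or CGA occurred in 67.6%, any of the motifs CCAGC or CCAGG and, with another first base, GCAGC or GCAGG in 48.4%, and the motif CTCC or CACC in 52.2%, against 67.1%, 43.4% and 48.8% of the regions in all protein-coding genes. Input regions of the same genes (102, in at least 2 inputs) had 58.8%, 38.2% and 47.1%. Mitochondrial regions had 77.4%, 60.4% and 64.2%, with a G + C content of 54.3% against 47.7% in cytosolic regions. The printed AARS2 stretch holds 5 matches to CGG or CGA and the IARS1 stretch none to any of the motifs. These shares are a description and were not tested.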

How the data were processed

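The authors sequenced 36 PAR-CLIP libraries, soluble and chromatin fractions of each replicate, and merged both fractions into 18 lists of clusters. The submitters' processing notes name bcl2fastq 1.8, cutadapt, Trim Galore, Bowtie2 2.2.9, Picard and the GRCh38 genome, and the study's methods name PARalyzer. The deposited lists hold a position, a strand and an unnamed score of 0.501 to 1 for each cluster, which served only to rank clusters. They precede the removal of input and control IP clusters and hold no reads, so depth is unknown and intervals cover counting error only.

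The genes, gene lists and tests were chosen with earlier results of these data known. Clusters were assigned by midpoint, and GENCODE 44 transcripts (MANE Select where there is one) gave exons. Genes with at least 6 clusters over the lists compared were tested on clusters per 10000 by two-sided exact permutation of list labels, with Benjamini-Hochberg adjustment over all genes and a threshold of 0.05, after tests on simulated data. Counts of 0 were limited at 3 clusters. Regions merged overlaps of at least 1 nt. An IP and its input of the same number came from the same extract, which pairs them. Their deviations from group means correlated at 0.022 to 0.41 over 6 pairs, against -0.311 to 0.179 over 12 pairs of other numbers. Deviations cancel out within a group, and replicate 1 was sequenced with longer reads. These correlations therefore cannot show whether an extract was shared. Python 3.11.15, NumPy 2.4.6, pysam 0.24.0, samtools 1.23.1, Matplotlib 3.10.9, R 4.3.3 and limma 3.58.1 were used.

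Values by list are given for the 8 cytosolic and 4 mitochondrial genes with the most SCAF IP clusters (with a tie), for those with clusters in at least 2 control IP lists and for those called in a comparison. Alternatives changed the scale, filter, score, assignment, test, inputs, block, replicates, consensus steps and isoform.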

Additional observations from a re-analysis of the deposited data

Results flagged for a closer look

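GARS1, the glycine enzyme of both compartments, had differences of opposite sign in the 2 FLAG lines. The difference of SCAF4 IP less the input of its line was -0.183, -1.82 and -3.02 clusters per 10000 in replicates 1, 2 and 3, and that of SCAF8 IP less its input was 2.58, 0.129 and 0.0946. The mean of the first less that of the second was -2.61. All 3 replicates of each line had the same sign, which drew attention to it, but the difference was not tested. GARS1 was picked out for this pattern from all the synthetase genes. How often such signs arise by chance in a search of this size, or among all genes, was not tested. In the FLAG-SCAF8 line 2 of the 3 differences were small beside the third. These rested on 2 IP clusters against 1 input cluster in replicate 2 and 5 against 1 in replicate 3. Groups of 3 lists are too small to look for a single outlying list.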

How the results depend on the processing

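The clusters per 10000 of cytosolic genes and the exon share moved by less than the spread between lists. Without any 1 list the means were 56.9 to 66.9 (cytosolic, SCAF IP), 52.9 to 64.4 (cytosolic, inputs of the same lines), 10.4 to 11.5 (mitochondrial, SCAF IP) and 3.77 to 4.51 (mitochondrial, inputs), and the exon share was 66.1% to 71.1%. Clusters at or above the median score gave a mitochondrial input share of 5.45 in place of 4.11, and the ratio of cytosolic to mitochondrial clusters was 9.67 per 10 kb of gene body. Without clusters that also lay in another gene of the same strand, an alternative chosen after seeing the data, the mitochondrial means were 7.52 in SCAF IP and 2.34 in the inputs, and the ratio was 7.23.

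Against the inputs, 1 synthetase gene was called higher and 1 lower. By number of clusters these counts were 17 and 0, against 48.3% and 0% of all genes, and the NARS1 difference was reversed at 2.83. They were 1 and 0 by nucleotides covered (9.63% and 4.24% of all genes) or with genes of at least 1 cluster (3.94% and 2.1%), 5 and 1 with limma (20.6% and 6.52%), and 6 and 0 against all 9 inputs (23.1% and 4.65%). At or above the median score, with the replicate number as a block, and within replicates 2 and 3 they were 0 and 0, as over all genes. The block exchanged lists of both lines within a replicate number, so it did not pair an IP with its own input. In the last 2 settings AARS2 and NARS1 had the smallest p that the permutations allow. Without 1 list, 1 to 3 were called higher and 0 to 1 lower. AARS2 was kept in all 12 such fits. It was at 0 in every input and above 0 in every SCAF IP list, so its groups stayed apart whichever list was left out. Being kept thus adds no further support. NARS1 was lost without SCAF4 IP replicate 2 or 3, any SCAF8 IP replicate or FLAG-SCAF4 input replicate 3. Over all 12 fits the NARS1 difference was -3.63 to -2.21, and that of AARS2 1.73 to 2.04.

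Against control IP limma called 4 higher and 1 lower (19.5% and 4.35% of all genes), and the exact test called no gene of any kind under any alternative, as for SCAF4 IP against SCAF8 IP. Consensus counts for SCAF4, SCAF8 and pooled lists (15, 7 and 16) were 29, 18 and 30 without removal by input density, and 8 and 2 for SCAF4 and SCAF8 when 3 of 3 lists were required. Without 1 replicate they were 10 to 20, 4 to 9 and 13 to 21, with the lowest of each without replicate 3 and the highest without replicate 1. Depth limits what a low count shows: control IP replicate 3 held 1621 clusters, so 1 cluster was worth 6.17 per 10000.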

Other observations

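Of 15 genes that work beside the synthetases, scaffold proteins of the multisynthetase complex, other charging enzymes and tRNA editing factors, 12 had a SCAF IP cluster. AIMP1, a scaffold of the complex, held 1, 8 and 6 clusters in SCAF4 IP, 3, 2 and 3 in SCAF8 IP, 1 in each control IP list and 1 or 2 in each input. AIMP2, another scaffold, held 1, 4 and 5, then 0, 1 and 2, and 9 in the inputs. Of the 8 tested against the inputs of the same lines 3 were higher and 5 lower in SCAF IP, with a median difference of -0.0931 clusters per 10000 and none called by the exact permutation test. AARSD1, which clears mischarged tRNA, held 15 SCAF IP clusters and 3 input clusters. On the opposite strand of the synthetase genes, outside other genes, the 18 lists held 1 cluster, in SCAF4 IP replicate 2.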
